A study of Mus musculus with 20 samples.

Results

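The MYC, MAX and MXD network is a family of basic helix-loop-helix leucine zipper transcription factors. 10 of its genes (Myc, Mycn, Max, Mxd1, Mxd3, Mxd4, Mxi1, Mnt, Mlx and Mlxip) were taken by symbol from a mouse table of 46603 gene identifiers, and all 10 were present. Their RNA was followed through 20 libraries, 2 for each of 10 groups.

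MAX is the shared partner: it pairs with MYC or MYCN to activate genes at E-box sites, and with MXD proteins, MXI1 or MNT to repress them at the same sites. MLX is a related partner that pairs with MLXIP (MondoA), a sensor of sugar phosphates, and with some of the repressors. In T cells MYC is known as a driver of growth and metabolism after antigen receptor stimulation, and MXD proteins are linked to growth arrest and differentiation in many tissues.

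The melanoma libraries came from B16F10, an established mouse melanoma line that was grown in puromycin. Ccdc101 knockout (KO) cells and control cells were each given thapsigargin (TG) or dimethyl sulfoxide vehicle. TG blocks the SERCA calcium pumps of the endoplasmic reticulum and was used at 50 ng/mL for 8 hours. The lymphocyte libraries were made from CD8 T cells of the OT-I/Cas9 kind, which carry a transgenic receptor and the Cas9 nuclease, and which were grown with IL-2, IL-7, IL-15 and puromycin. With vehicle there were T cells with an Atp2a2 KO, labelled as activated or as resting; Atp2a2 encodes the SERCA2 pump. Control T cells were activated or resting, each with TG or vehicle. Activation used plate-bound anti-CD3 at 2.5 µg/mL for 24 hours. The labels do not say whether the KO cells were clones or whether the 2 libraries of a group were separate cultures, so p-values measure only the spread between these libraries.

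Depth ran from 9985311 to 17462770 gene counts per library, and the libraries of a pair differed by more than sampling noise in every group. The current symbol of Ccdc101 is Sgf29. With TG its level in CPM (counts scaled to a common library total) was 25.3 and 23.3 in KO melanoma, against 33.8 and 33.2 CPM in control melanoma; with vehicle it was 18.2 and 17.4 CPM in the KO, against 27.9 and 26.4 CPM in control. In activated T cells Atp2a2 had 453 and 452 CPM in the KO, against 682 and 704 CPM in control. The libraries labelled resting Atp2a2 KO went against their label: Atp2a2 had 466 and 463 CPM there, against 239.5 and 241 CPM in resting control T cells. Their 7 activation markers (Il2ra, Ifng, Cd69, Nr4a1, Tnfrsf9, Egr2, Xcl1) summed to 15787 and 15871 CPM, close to 16242 and 16778 CPM in activated KO cells and far above 2639 and 2568 CPM in resting control cells. Activated and labelled resting KO libraries differed in few genes: 0.469% of 13432 tested genes were called higher and 0.119% lower. Results that used the labelled resting libraries are therefore named as such, and fits of the T cell comparisons without them kept the direction and side of the threshold of all 70 member values. All 7 melanocyte markers (Pmel, Dct, Tyrp1, Tyr, Mlana, Sox10, Mitf) were above 10 CPM in melanoma, summing to between 10315 and 16141 CPM, and all 7 CD8 T cell markers were above 10 CPM in T cells. Melanocyte markers summed to 0.312 to 1.34 CPM in KO T cells and to 5.21 to 7.80 CPM in control T cells.

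The E-box CACGTG, which reads the same on both strands, is the best known binding site of MYC-MAX, MXD-MAX and MLX pairs. RefSeq promoter windows on GRCm38.p6, from 250 bases before to 50 bases after a start, were used for 9 members, all but Myc, and 4 of the 9 held the letters: Mxd4, Mnt, Max and Mlx. Among all 27025 genes with a window 8.09% held them. The 30 bases around each E-box are shown because these are the members, of the 9, whose window holds the site the family binds. Each is written 5′ to 3′ on the gene's strand, with the E-box in capitals.
Mxd4: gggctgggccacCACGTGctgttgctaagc
Mnt: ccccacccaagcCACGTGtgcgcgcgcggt
Max: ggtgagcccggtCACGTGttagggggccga
Mlx: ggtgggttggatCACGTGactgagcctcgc
The Mxd4 stretch lies at chr5:34187912-34187941 on the minus strand, and its E-box begins 219 bases before the start. The Mnt stretch lies at chr11:74830789-74830818 on the plus strand, 123 bases before. The Max stretch lies at chr12:76962234-76962263 on the minus strand, 3 bases before. The Mlx stretch lies at chr11:101087238-101087267 on the plus strand, 40 bases before. A match is a description of the letters in this window and does not show binding in these cells.

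Levels below are CPM scaled over all 20 libraries by the trimmed mean of M values (TMM). Myc (chr15:61985391-61990374 on GRCm38) was highest in activated control T cells with vehicle, at 585 and 569.5 CPM. It was lower, in order, in activated Atp2a2 KO cells (476 and 465 CPM), labelled resting Atp2a2 KO cells (429 and 433), activated control cells with TG (359.8 and 337), resting cells with TG (254 and 252) and resting cells with vehicle (206 and 226). On this scale all 8 melanoma libraries lay below all 12 T cell libraries. Neighbouring groups in this order did not overlap, except control and Ccdc101 KO melanoma with TG at the bottom. Without the TMM factor control melanoma and resting T cells with vehicle overlapped. Myc had 2498 of 13078825 counts in the second of these melanoma libraries, a larger share than 2412 of 12799661 counts in the first of these resting libraries. Across groups Mxi1 spanned 5.09-fold, Myc 5.77-fold, Mxd1 7.07-fold, Mxd4 9.49-fold and Mxd3 57.3-fold. Max spanned 1.90-fold, Mlx 1.80-fold, Mnt 2.21-fold and Mlxip 2.66-fold. The partners MAX and MLX thus had the narrowest range of group means. Mxd3, Mxd4 and Mxd1 had the widest among genes detected in every group.

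**Figure D1:**
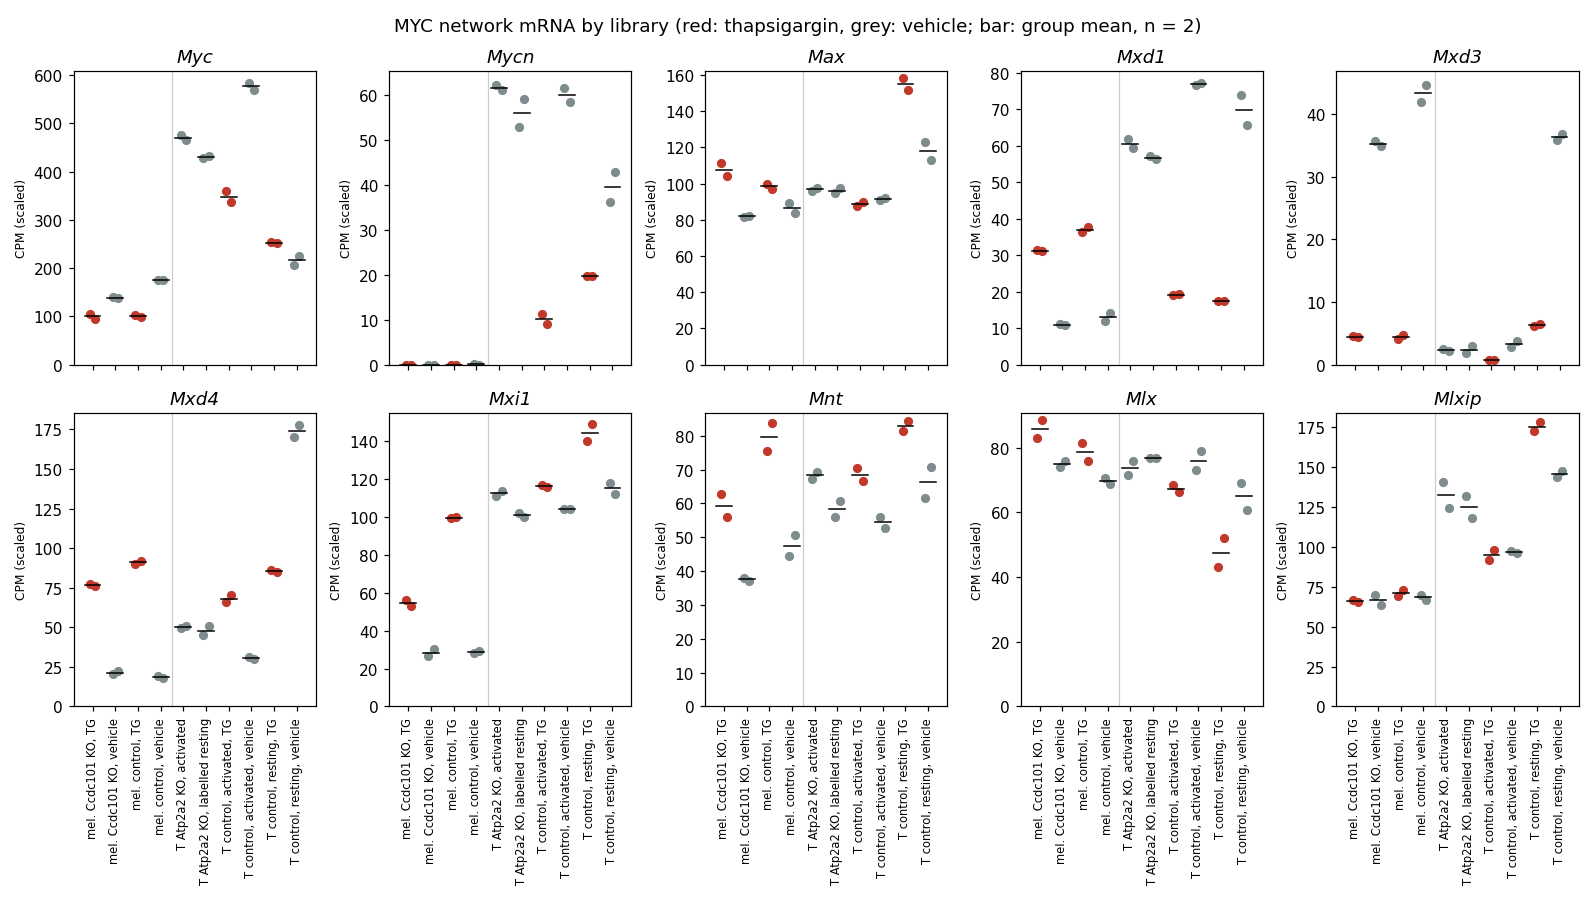
Scaled CPM of each network gene (y axis, starting at 0) in the 10 groups (x axis), with 1 point per library, red for TG and grey for vehicle, and a bar at the group mean of 2 libraries; melanoma groups are left of the thin line. Mycn was near 0 in melanoma, and Mxd1 points with TG lie above vehicle in melanoma (36.3 and 37.7 against 11.8 and 14.2 CPM in control cells) and below vehicle in T cells.

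TG lowered Myc and raised most of the repressors in control melanoma. Myc had 102 and 98.6 CPM with TG, against 175 and 176 CPM with vehicle (log2 change -0.80 ± 0.046 SE, adjusted p = 1.9e-19 by edgeR's quasi-likelihood test, as throughout). The groups did not overlap. Mxd4, a repressor of arrested and differentiated cells, had 89.95 and 92.1 CPM with TG, against 18.997 and 17.7 CPM with vehicle (2.31 ± 0.066, adjusted p = 4.7e-30). Mxi1, also called MXD2, had 99.2 and 99.9 CPM with TG, against 28.2 and 29.3 CPM with vehicle (1.80 ± 0.061, adjusted p = 2.4e-27). For both genes every TG library was more than 3 times above every vehicle library.

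Mxd1, a repressor known to be induced in differentiating cells, followed the same direction in control melanoma, with 36.3 and 37.7 CPM with TG, against 11.8 and 14.2 CPM with vehicle (1.52 ± 0.090, adjusted p = 6.7e-19). Mnt, the most widely expressed antagonist of MYC, had 75.4 and 83.7 CPM with TG, against 44.5 and 50.6 CPM with vehicle (0.76 ± 0.067, adjusted p = 2.9e-11). Mxd3 went the other way, with no overlap of the groups: it had 4.01 and 4.71 CPM with TG, against 42.0 and 44.7 CPM with vehicle (-3.30 ± 0.11, adjusted p = 3.0e-27). MXD3 is the member of the repressor family tied to S phase and proliferating cells. Mxd3 shares exon sequence with Prelid1 on the opposite strand (61159 counts in all libraries) and Mlx with Psmc3ip (3287 counts); the strand of counting is not stated, so their counts cannot be told fully apart. The partners moved little, Max by 0.19 ± 0.050 (adjusted p = 0.00076) and Mlx by 0.18 ± 0.054 (adjusted p = 0.0028), and Mlxip had 69.1 and 73.0 CPM with TG, against 69.8 and 67.0 CPM with vehicle (0.06 ± 0.056, adjusted p = 0.35). Leaving out the first TG library took Mlx above the threshold. 9 members were tested and 6 rose and 2 fell, in a comparison in which 35.7% of 12540 tested genes were called higher and 36.1% lower. Mycn did not pass the filter on low counts in melanoma, having 1 count in all 8 libraries. Melanocyte markers moved with TG, 6 of 7 being called lower, with sums of 13535 and 13528 CPM with TG, against 15924 and 16141 CPM with vehicle; their part in the result was not tested.

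In Ccdc101 KO melanoma TG raised and lowered the same members that were called in control cells, and 3 members changed by a different amount. Myc had 105 and 95.1 CPM with TG, against 139.9 and 137 CPM with vehicle (-0.48 ± 0.046, adjusted p = 3.0e-12). Mxd4 had 77.7 and 75.8 CPM with TG, against 20.2 and 22.2 CPM with vehicle (1.85 ± 0.068, adjusted p = 3.6e-26). Mxi1 had 56.2 and 53.0 CPM with TG, against 26.6 and 30.1 CPM with vehicle (0.94 ± 0.069, adjusted p = 8.4e-16). These 3 genes moved less than in control cells. The TG change in the KO minus that in control was 0.32 ± 0.065 for Myc (adjusted p = 0.00057), -0.46 ± 0.10 for Mxd4 (adjusted p = 0.0013) and -0.86 ± 0.095 for Mxi1 (adjusted p = 8.3e-09). The difference was called positive for 7.16% and negative for 5.95% of all tested genes. For Mxd1 (1.51 ± 0.098 in the KO), Mxd3 (-2.98 ± 0.11), Mnt (0.65 ± 0.074), Max (0.39 ± 0.050), Mlx (0.19 ± 0.052) and Mlxip (-0.02 ± 0.056) the difference did not pass the test. In the KO 6 of 9 tested members rose with TG and 2 fell, where 34.1% of tested genes were called higher and 36.3% lower, and Mlx was not called without the second KO library with TG.

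The KO itself was set against control in each medium; these comparisons share their libraries with the TG comparisons above. With vehicle, Myc had 139.9 and 137 CPM in KO cells, against 175 and 176 CPM in control cells (-0.32 ± 0.043, adjusted p = 1.7e-07), and the groups did not overlap. Mnt (38.03 and 37.2 CPM in the KO, against 44.5 and 50.6 CPM in control; -0.31 ± 0.075, adjusted p = 0.0023) and Mxd3 (35.6 and 34.9 against 42.0 and 44.7 CPM; -0.28 ± 0.069, adjusted p = 0.0023) were also lower in the KO, and the call of Mxd3 was lost with DESeq2. No member was called higher with vehicle; 3 of 9 were lower, where 12.4% of genes were called higher and 13.3% lower. With TG the Myc levels of KO and control overlapped (105 and 95.1 CPM against 102 and 98.6 CPM; adjusted p = 0.99). Mxi1 was then the most different member, at 56.2 and 53.0 CPM in KO cells, against 99.2 and 99.9 CPM in control cells (-0.86 ± 0.057, adjusted p = 5.8e-16). Mnt (-0.42 ± 0.067, adjusted p = 1.2e-05), Mxd4 (-0.24 ± 0.053, adjusted p = 0.00046) and Mxd1 (-0.24 ± 0.079, adjusted p = 0.018) were lower, and Max was higher (0.13 ± 0.050, adjusted p = 0.035), among 16.6% of genes called higher and 15% lower. The calls of Mxd1 and Max were lost with DESeq2. Melanocyte markers moved with these groups: all 7 were lower in the KO, with TG and with vehicle, and their part in the result was not tested.

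**Figure D2:**
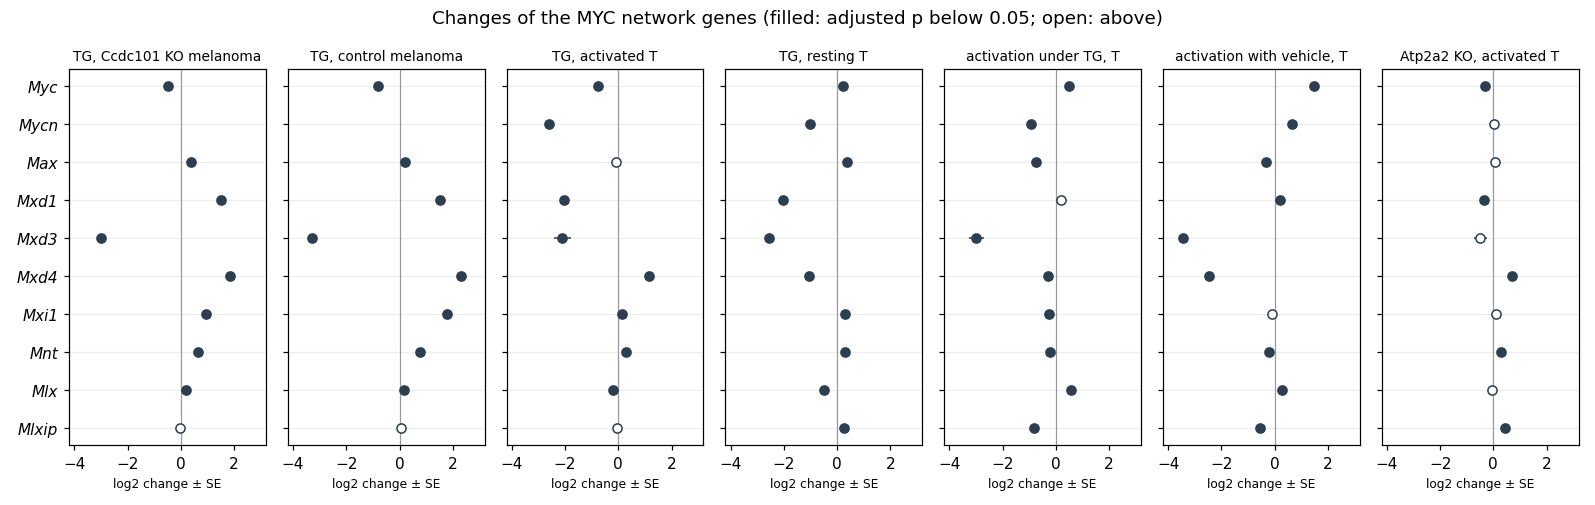
Log2 change ± SE (x axis) of each network gene (rows) in 7 comparisons (panels), filled where the adjusted p was below 0.05 and open where it was above; the SE of most points is smaller than the symbol. With TG Mxd1 lies right of 0 in both melanoma panels (1.51 and 1.52) and left of 0 in both T cell panels (-2.03 and -2.02), and Mxd3 lies left of 0 in all 4 TG panels.

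Activation of control T cells raised both MYC genes and lowered Mxd4 and Mxd3. With vehicle, Myc had 585 and 569.5 CPM in activated cells, against 206 and 226 CPM in resting cells (1.47 ± 0.039, adjusted p = 2.3e-38). Mycn, the paralogue best known from neural and early lymphoid cells, had 61.4 and 58.4 CPM in activated cells, against 36.0 and 42.9 CPM in resting cells (0.67 ± 0.071, adjusted p = 2.7e-12). Both genes were higher in every activated library. Mxd4 had 31.2 and 29.8 CPM in activated cells, against 170.5 and 178 CPM in resting cells (-2.45 ± 0.056, adjusted p = 2.1e-41). Mxd3 had 2.87 and 3.72 CPM in activated cells, against 35.9 and 36.8 CPM in resting cells (-3.43 ± 0.13, adjusted p = 5.3e-31). Mxd3 was thus low in the activated libraries. Whether activated or resting cells proliferated more was not tested, so its tie to proliferating cells cannot be judged here. Smaller falls passed the test for Mlxip (-0.54 ± 0.051), Max (-0.31 ± 0.048) and Mnt (-0.22 ± 0.062), and small rises for Mlx (0.27 ± 0.066) and Mxd1 (0.19 ± 0.056); Mxi1 had 104 and 104 CPM in activated cells, against 118 and 112 CPM in resting cells (adjusted p = 0.082). Leaving out the second resting library took Mnt and Mxd1 above the threshold. In all, 4 members rose and 5 fell, where 35.3% of 13432 genes were called higher and 39.1% lower. CD8 T cell markers moved with activation, 6 of 7 being called lower. Their sums were 2243 and 2241 CPM in activated cells, against 3998 and 3968 CPM in resting cells, and their part in the result was not tested. In bulk RNA, fewer cells of a type and less RNA per cell cannot be told apart.

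With TG present, activation moved Myc less and Mycn the other way. Myc had 359.8 and 337 CPM in activated cells with TG, against 254 and 252 CPM in resting cells with TG (0.51 ± 0.039, adjusted p = 5.2e-17). Mycn had 11.3 and 8.999 CPM in activated cells with TG, against 19.8 and 19.7 CPM in resting cells with TG (-0.92 ± 0.12, adjusted p = 2.3e-09). Mxd4 had 66.0 and 70.2 CPM, against 86.2 and 84.7 CPM (-0.28 ± 0.056, adjusted p = 2.1e-05), a much smaller gap than with vehicle. Mxd3 fell by 2.997 on the log2 scale (SE 0.28), Mlxip fell by 0.84 (SE 0.051) and Max fell by 0.76 (SE 0.047). 2 members rose and 7 fell, where 32.0% of genes were called higher and 31.9% lower.

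In resting control T cells all 10 members were called with TG, 5 up and 5 down, where 34.1% of genes were called higher and 35.2% lower. Mxd1 had 17.4 and 17.5 CPM with TG, against 73.9 and 65.5 CPM with vehicle (-2.02 ± 0.078, adjusted p = 1.6e-30). Mxd3 had 6.15 and 6.47 CPM with TG, against 35.9 and 36.8 CPM with vehicle (-2.54 ± 0.12, adjusted p = 1.9e-26). Mxd4 had 86.2 and 84.7 CPM with TG, against 170.5 and 178 CPM with vehicle (-1.04 ± 0.049, adjusted p = 2.7e-26). These 3 repressors fell together in resting cells, unlike in melanoma where 2 of them rose. Mycn fell to 19.8 and 19.7 CPM with TG, against 36.0 and 42.9 CPM with vehicle (-1.01 ± 0.091, adjusted p = 1.9e-14), and Mlx fell by 0.48 on the log2 scale (SE 0.074, adjusted p = 6.5e-07). Myc rose modestly, to 254 and 252 CPM with TG, against 206 and 226 CPM with vehicle (0.22 ± 0.041, adjusted p = 5.7e-06). Max (0.38 ± 0.046), Mnt (0.32 ± 0.060), Mxi1 (0.31 ± 0.046) and Mlxip (0.25 ± 0.049) rose too. Of the 7 activation markers 5 were called higher and 1 lower with TG. Their sums were 6132 and 6161 CPM with TG, against 2639 and 2568 CPM with vehicle. Ifng averaged 1604 CPM with TG, against 10.0 CPM with vehicle, and Il2ra 1417 CPM, against 1405 CPM. The part of these markers in the result was not tested.

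In activated control T cells TG lowered both MYC genes. Myc had 359.8 and 337 CPM with TG, against 585 and 569.5 CPM with vehicle (-0.75 ± 0.037, adjusted p = 3.5e-25). Mycn had 11.3 and 8.999 CPM with TG, against 61.4 and 58.4 CPM with vehicle (-2.59 ± 0.093, adjusted p = 2.8e-31). Mycn thus had the largest fall among the members here. Mxd1 had 18.96 and 19.2 CPM with TG, against 76.7 and 77.1 CPM with vehicle (-2.03 ± 0.072, adjusted p = 4.9e-32), nearly the level reached in resting cells with TG. Mxd3 was already low and fell further, with 0.797 and 0.717 CPM with TG, against 2.87 and 3.72 CPM with vehicle (-2.11 ± 0.32, adjusted p = 4.6e-08). Mxd4 rose, with 66.0 and 70.2 CPM with TG, against 31.2 and 29.8 CPM with vehicle (1.14 ± 0.064, adjusted p = 8.2e-23). Mnt (0.30 ± 0.060) and Mxi1 (0.14 ± 0.046) rose and Mlx fell (-0.19 ± 0.064); the call of Mxi1 was lost with DESeq2 and with no filter, and that of Mlx without the second library of either group. Max had 87.5 and 89.5 CPM with TG, against 91.1 and 92.0 CPM with vehicle (adjusted p = 0.22), and Mlxip 91.9 and 98.0 CPM against 97.4 and 96.2 CPM (adjusted p = 0.45). 3 members rose and 5 fell, where 32.6% of genes were called higher and 32.4% lower. The activation marker sum was 17368 and 17238 CPM with TG, against 14478 and 14780 CPM with vehicle, with 4 markers higher and 3 lower: Ifng averaged 10718 CPM with TG, against 4915 CPM with vehicle, and Il2ra 2969 CPM, against 5820 CPM. 6 of 7 CD8 T cell markers were higher with TG, with sums of 3231 and 3261 CPM, against 2243 and 2241 CPM. The part of these markers in the result was not tested.

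The TG response of 7 members differed between activated and resting T cells, in a test that called 26.7% of genes positive and 25.2% negative. The change in activated cells minus that in resting cells was 2.18 ± 0.081 for Mxd4 (adjusted p = 3.1e-30), whose direction turned. It was -0.97 ± 0.055 for Myc (adjusted p = 6.6e-22), whose direction also turned, and -1.59 ± 0.14 for Mycn (adjusted p = 2.0e-14), which fell in both states. Smaller differences were called for Max (-0.45), Mlxip (-0.30), Mlx (0.29) and Mxi1 (-0.17); the calls of Mlx and Mxi1 were lost with DESeq2, and with some libraries left out (either of the first resting libraries or the first activated vehicle library for Mlx, the second resting vehicle or second activated TG library for Mxi1). For Mxd1 the difference was -0.01 ± 0.12 (adjusted p = 0.94), for Mnt -0.01 ± 0.085 (adjusted p = 0.92) and for Mxd3 0.43 ± 0.41 (adjusted p = 0.40).

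Mxd1 responded to TG in opposite directions in melanoma and in T cells of both states, and Mxd4 in opposite directions in melanoma and resting T cells, while Mxi1 and Mnt rose and Mxd3 fell in all 3. The rise of Mxi1 in activated T cells was small, and its call was lost with DESeq2 and with no filter. The TG change of Mxd1 in control melanoma exceeded that in resting T cells by 3.52 ± 0.12 (adjusted p = 1.1e-39) and that in activated T cells by 3.53 ± 0.115 (adjusted p = 1.9e-40). For Mxd4 these differences were 3.33 ± 0.083 (adjusted p = 4.2e-48) and 1.15 ± 0.096 (adjusted p = 2.2e-17), and for Mxi1 1.47 ± 0.076 and 1.64 ± 0.076 (adjusted p = 2.4e-28 and 5.2e-31). Mnt rose more in melanoma than in T cells of either state, by 0.42 ± 0.093 in both tests. Mxd3 fell further in melanoma than in resting cells (-0.78 ± 0.20, adjusted p = 0.00065). Myc fell in melanoma while it rose in resting T cells (difference -1.03 ± 0.061, adjusted p = 3.7e-25), but against activated T cells, where it fell as well, the difference was -0.08 ± 0.059 (adjusted p = 0.33). Against resting cells 9 of 10 members were called, 5 positive and 4 negative, where 23.6% of 14824 genes were called positive and 23.8% negative. Against activated cells 7 were called, 6 positive and 1 negative, where 21.6% were called positive and 21.8% negative; the negative call of Mxd3 (-1.22 ± 0.42) was lost without the first activated vehicle library and without either activated TG library. The control melanoma libraries are shared by both tests. Cell type, culture medium and cytokines differ together here and cannot be told apart.

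The Atp2a2 KO changed fewer members than TG did in activated T cells, and fewer of all genes too. With TG 32.6% of all genes were called higher and 32.4% lower there. Both comparisons share the activated control libraries with vehicle. Myc had 476 and 465 CPM in KO cells, against 585 and 569.5 CPM in control cells (-0.31 ± 0.037, adjusted p = 2.9e-10). Mxd4 had 49.3 and 50.7 CPM in KO cells, against 31.2 and 29.8 CPM in control cells (0.69 ± 0.066, adjusted p = 8.1e-13). Mlxip had 141 and 125 CPM in KO cells, against 97.4 and 96.2 CPM in control cells (0.44 ± 0.050, adjusted p = 1.3e-09). All 3 were separate between groups. Mxd1 was lower in KO cells (61.7 and 59.3 against 76.7 and 77.1 CPM; -0.36 ± 0.055, adjusted p = 2.9e-07) and Mnt higher (67.3 and 69.3 against 56.1 and 52.9 CPM; 0.30 ± 0.059, adjusted p = 3.6e-05). Mycn overlapped between KO and control, at 62.2 and 61.0 CPM against 61.4 and 58.4 CPM (0.02 ± 0.062, adjusted p = 0.85). 3 members rose and 2 fell, where 17.5% of genes were called higher and 19.6% lower. The melanocyte marker sums of 1.34 and 1.12 CPM in activated KO cells, against 5.21 and 7.44 CPM in activated control cells, moved with this comparison. Of the 7 activation markers 3 were called higher and 4 lower in the KO. Ifng averaged 7902 CPM in KO cells, against 4915 CPM in control cells, and Il2ra 4944 CPM, against 5820 CPM. 6 of 7 CD8 T cell markers were higher in the KO, with sums of 2606 and 2700 CPM, against 2243 and 2241 CPM. The part of all these markers in the result was not tested.

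Set directly against activated control cells with TG, activated KO cells with vehicle had more Mycn (62.2 and 61.0 CPM, against 11.3 and 8.999 CPM; 2.61 ± 0.093, adjusted p = 3.4e-31). They also had more Mxd1 (1.67 ± 0.075, adjusted p = 5.6e-27), Mxd3 (1.63 ± 0.34), Mlxip (0.49 ± 0.052), Myc (0.44 ± 0.038, adjusted p = 3.6e-15) and Max (0.13 ± 0.049), and less Mxd4 (-0.45 ± 0.059, adjusted p = 2.6e-09). Here 6 members were higher and 1 lower, where 30.0% of genes were called higher and 30.5% lower, and the call of Max was lost with DESeq2 and without 1 library of either group. Mnt overlapped between these groups. The labelled resting KO libraries, against resting control cells, had 429 and 433 CPM of Myc, against 206 and 226 CPM (1.06 ± 0.040, adjusted p = 8.4e-31). They had 45.0 and 50.9 CPM of Mxd4, against 170.5 and 178 CPM (-1.80 ± 0.056, adjusted p = 8.1e-35), and 1.87 and 2.91 CPM of Mxd3, against 35.9 and 36.8 CPM (-3.87 ± 0.16, adjusted p = 1.3e-29). For these 3 genes the directions are those of activation in control cells, but Mxd1 was lower in the labelled resting KO libraries (-0.25 ± 0.064, adjusted p = 0.00055), a call lost without the first resting control library, and higher with activation. 3 members were higher and 6 lower, where 33.7% of genes were called higher and 35.9% lower. Between activated and labelled resting KO libraries 0 members were called by edgeR or by DESeq2, and 3 (Mnt, Myc and Mxi1) had an unadjusted p below 0.05. Of all genes 0.469% were called higher and 0.119% lower there, so a count of 0 says little about the members.

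With vehicle, control melanoma had less of most members than T cells. Mycn had 1 count in the 2 melanoma libraries, against 856 counts in resting and 1778 counts in activated T cell libraries. The level of Mycn in resting T cells over that in melanoma was 1240-fold, with an exact 95% counting interval of 222 to 49026. For activated T cells the ratio was 1900-fold, with an interval of 341 to 75080; both intervals cover counting error only. Mxd4 had 18.997 and 17.7 CPM in melanoma, against 170.5 and 178 CPM in resting T cells (-3.24 ± 0.061, adjusted p = 5.1e-58). Mxd3 was the exception, being higher in melanoma (42.0 and 44.7 CPM) than in resting T cells (35.9 and 36.8 CPM; 0.25 ± 0.075, adjusted p = 0.0018) and activated T cells (2.87 and 3.72 CPM; 3.73 ± 0.12, adjusted p = 2.0e-43). Against resting cells 1 member was higher and 8 lower, where 40.8% of genes were called higher and 43.0% lower. Against activated cells 1 was higher and 7 lower, where 39.0% were called higher and 43.7% lower.

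To compare members with each other, CPM were divided by the merged exon length in kb. Myc then held the largest share of the summed mRNA of the MAX partners (Myc, Mycn, Mxd1, Mxd3, Mxd4, Mxi1 and Mnt) in all 10 groups. In control melanoma the Myc share was 43.8% and 41.6% with TG, against 64.5% and 62.9% with vehicle; in Ccdc101 KO melanoma it was 50.8% and 50.0% with TG, against 62.3% and 61.7% with vehicle. In activated control T cells it was 74.0% and 73.2% with TG, against 77.7% and 77.6% with vehicle. In resting control T cells the order was the reverse, 61.2% and 60.3% with TG, against 46.5% and 47.9% with vehicle. Libraries with TG and with vehicle did not overlap in any of the 4 pairs. With 2 libraries in each group an exact permutation test cannot go below p = 0.333, so no test is given.

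The makeup of the rest changed as well. Mxd3 made up 17.8% and 18.3% of partner mRNA in control melanoma with vehicle, the largest share among the repressors there with either length. With no length correction Mnt was above it (mean 14.6%, against 13.3% for Mxd3). With TG Mxd3 was at 1.97% and 2.28%, Mnt at 18.99% and 20.7%, Mxi1 at 16.9% and 16.8% and Mxd4 at 12.4% and 12.5%. The order of the last 3 depended on the length used: with the longest transcript Mxi1 and Mxd4 (means 17.96% and 17.87%) were above Mnt (15.7%), as they were with no length correction. In resting T cells with vehicle Mxd4 had the largest repressor share, at 12.3% and 12.1%. The ratio of the summed Myc and Mycn level per kb to the summed MXD, Mxi1 and Mnt level per kb was 0.778 and 0.713 in control melanoma with TG, against 1.82 and 1.69 with vehicle. It was 3.15 and 2.97 in activated control T cells with TG, against 5.42 and 5.33 with vehicle, and 1.86 and 1.79 in resting control T cells with TG, against 1.14 and 1.24 with vehicle. In activated Atp2a2 KO cells it was 4.18 and 4.04. In Ccdc101 KO melanoma with TG it was 1.03 and 0.999. Repressor mRNA per kb thus exceeded MYC mRNA in both libraries of control melanoma with TG and in 1 library of the KO with TG. With the longest transcript as length it did so in both libraries of the KO with TG as well (Myc share 46.8% and 45.7%, no Mycn). With that length it also did so in the first library of resting control T cells with vehicle (Myc 41.7%, Mycn 6.36%). In the second library of that group it did not (Myc 43.1%, Mycn 7.16%). With no length correction it did so in both resting control groups too. Shares of mRNA do not give shares of protein or of dimers.

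**Figure D3:**
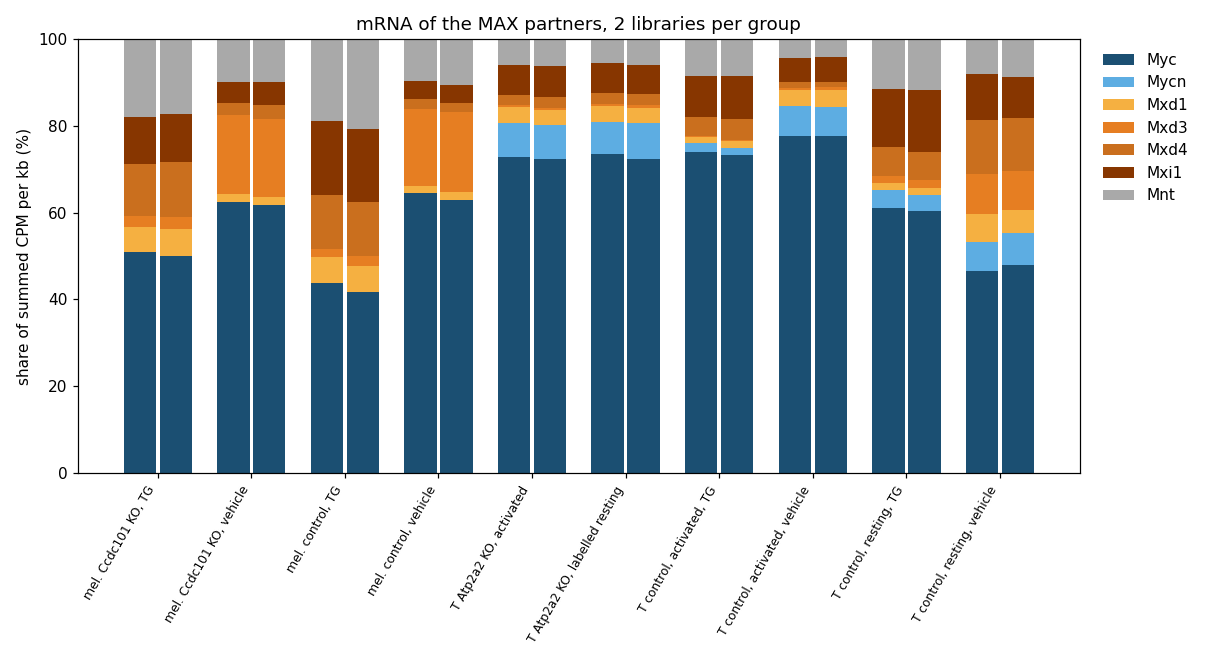
Share of the summed CPM per kb of the 7 MAX partners (y axis, percent) in each of the 20 libraries (bars, in pairs by group), blue for Myc and Mycn, orange to brown for the MXD genes and Mxi1, grey for Mnt. The Myc share was lowest in control melanoma with TG (43.8% and 41.6%) and highest in activated control T cells with vehicle (77.7% and 77.6%).

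Genes known to be activated by MYC were followed as a list of 38 growth genes, mainly of ribosome and nucleolus assembly. All 38 rose with activation of control T cells with vehicle, with a median log2 change of 1.49 beside -0.04 over all tested genes. Of all tested genes 35.3% were called higher and 39.1% lower there. Srm, the spermidine synthase gene, had 329 and 332 CPM in activated cells, against 72.6 and 67.5 CPM in resting cells (2.29 ± 0.046, adjusted p = 3.0e-44). Hspd1, a mitochondrial chaperone gene, rose by 2.19 ± 0.039 and Rrp12, an rRNA processing gene, by 2.19 ± 0.053. Among cells given TG 37 were higher in activated than in resting cells and none were lower, with a median of 0.88 beside a median of all tested genes near 0 (-0.0047). Of all genes 32.0% were then called higher and 31.9% lower. In activated control T cells TG lowered 36 and raised 1, with a median of -0.65 beside 0.0080. Of all genes TG lowered 32.4% and raised 32.6% there. Nolc1, a nucleolar phosphoprotein gene, had 236 and 243 CPM with TG, against 497 and 508 CPM with vehicle (-1.09 ± 0.039, adjusted p = 2.0e-31), and Bop1 and Nop56, of ribosome assembly, fell by 0.97 and 0.95 on the log2 scale.

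In resting T cells TG raised 15 of the 38 growth genes and lowered 13, with a median of 0.05 beside 0.0064. Of all genes 34.1% were called higher and 35.2% lower there. Wdr74 had 57.6 and 62.0 CPM with TG, against 31.1 and 30.5 CPM with vehicle (0.94 ± 0.069, adjusted p = 5.3e-18), while Nme1, a nucleoside diphosphate kinase gene, had 51.0 and 46.0 CPM, against 124 and 115 CPM (-1.31 ± 0.055, adjusted p = 1.1e-28). The list was mixed in this state, with called shares close to those of all genes. In control melanoma TG lowered 25 and raised 6, with a median of -0.39 beside -0.00082. Of all genes 36.1% were called lower and 35.7% higher there. Grwd1, Bop1 and Fbl, all of ribosome production, fell by 0.92, 0.89 and 0.73 on the log2 scale. In Ccdc101 KO melanoma TG lowered 17 and raised 12, with a median of -0.05 beside -0.02. These counts are near the shares of all genes, of which 36.3% were called lower and 34.1% higher. The difference of the TG change between KO and control was called for 24 of the 38, all positive (median 0.25 beside 0.00068), among them Dkc1 (0.62 ± 0.0605) and Rrp9 (0.58 ± 0.10). Over all genes this difference was called positive for 7.16% and negative for 5.95%. With vehicle 15 growth genes were lower and 0 higher in Ccdc101 KO than in control melanoma, where 13.3% of all genes were called lower and 12.4% higher. With TG 1 was lower and 22 were higher, where 15% of all genes were called lower and 16.6% higher.

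In activated Atp2a2 KO cells 34 of the 38 growth genes were lower than in activated control cells and 0 were higher, with a median of -0.28 beside -0.0043. Of all genes 19.6% were called lower and 17.5% higher there. Nolc1 had 369 and 389 CPM in KO cells, against 497 and 508 CPM in control cells (-0.43 ± 0.038, adjusted p = 4.8e-14), and Hspd1 had 693 and 724 CPM, against 913 and 919.6 CPM (-0.39 ± 0.035). Of the 30 growth genes with a RefSeq promoter window 10 held the E-box letters (33.3%), beside 8.09% of 27025 genes with a window. The list was chosen as known MYC-activated genes, and the 27025 genes include many that were not tested here. No conclusion is therefore drawn from these shares. The growth list and the network members come from the same libraries, so their shared directions are not independent of each other.

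**Figure D4:**
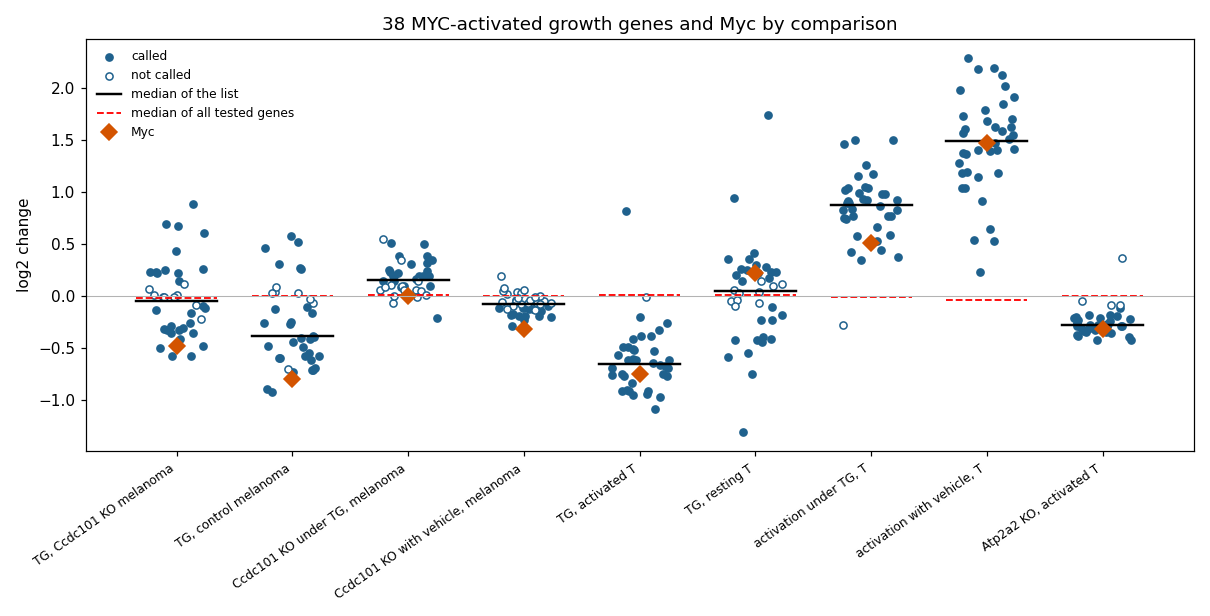
Log2 change (y axis) of the 38 MYC-activated growth genes (points, filled where called and open where not) in 9 comparisons (x axis), with the list's median (black line), the median of all tested genes (dashed line) and the change of Myc (diamond). The list's median was 1.49 for activation with vehicle, -0.65 for TG in activated T cells and 0.05 for TG in resting T cells.

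7 genes that MYC is known to repress were followed too, of which 4 were tested in melanoma and 6 in T cells. All 4 rose with TG in control melanoma (median 0.89 beside -0.00082 over all genes, of which 35.7% were called higher) and in Ccdc101 KO melanoma (median 0.93 beside -0.02, with 34.1% called higher). Gadd45a, a growth arrest gene, had 70.6 and 68.9 CPM with TG, against 3.96 and 3.94 CPM with vehicle in control cells (4.14 ± 0.095, adjusted p = 1.1e-33). Cdkn1b, which encodes the cell cycle inhibitor p27, had 154 and 145 CPM, against 70.7 and 76.3 CPM (1.03 ± 0.049). In T cells activation with vehicle lowered 4 and raised 1 of 6 (median -0.59 beside -0.04), where 39.1% of all genes were called lower and 35.3% higher. There Cdkn1b had 42.2 and 42.6 CPM in activated cells, against 184 and 191 CPM in resting cells (-2.09 ± 0.051, adjusted p = 4.2e-40). TG raised 4 and lowered 2 in activated T cells, with Cdkn2b at 56.8 and 48.8 CPM with TG, against 16.5 and 15.5 CPM with vehicle (1.69 ± 0.084), and the counts were also 4 and 2 in resting T cells. The medians were 1.11 in activated cells and 0.28 in resting cells, beside 0.0080 and 0.0064 over all genes, of which 32.6% and 34.1% were called higher and 32.4% and 35.2% lower. The Atp2a2 KO raised 4 and lowered 0 in activated cells (median 0.23 beside -0.0043), where 17.5% of all genes were called higher and 19.6% lower.

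Txnip and Arrdc4 are the standard targets of the MLXIP and MLX pair, and both encode arrestin-like proteins that limit glucose uptake. Txnip had 97.7 and 117 CPM with TG, against 30.5 and 33.2 CPM with vehicle in control melanoma (1.77 ± 0.155, adjusted p = 0.00023), while Mlxip and Mlx moved little. In resting T cells Txnip went the other way, with 205 and 206 CPM with TG, against 632 and 606 CPM with vehicle (-1.60 ± 0.038, adjusted p = 6.2e-41). Activation also lowered it, to 117 and 118 CPM in activated cells, against 632 and 606 CPM in resting cells, both with vehicle (-2.35 ± 0.039, adjusted p = 5.2e-48). Arrdc4 had no count in melanoma, and with vehicle it was at least 27.5-fold lower in melanoma than in resting T cells (against 3 counts over the group). It rose with TG in activated T cells, with 12.5 and 12.2 CPM with TG, against 1.92 and 1.78 CPM with vehicle (2.70 ± 0.19, adjusted p = 7.3e-19), where Txnip fell slightly (-0.19 ± 0.044), and in resting T cells, with 4.94 and 5.18 CPM with TG, against 2.91 and 2.27 CPM with vehicle (0.94 ± 0.23, adjusted p = 0.00035). The 2 targets thus moved in opposite directions in T cells with TG.

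Among 12 genes of MYC protein turnover, TG lowered Skp2, an E3 ligase subunit, in control melanoma (28.7 and 26.7 CPM with TG, against 86.1 and 87.8 CPM with vehicle; -1.64 ± 0.063) and raised Usp36, a nucleolar deubiquitinase (205 and 210.2 CPM, against 86.8 and 87.3 CPM; 1.26 ± 0.044). 5 of the 12 rose and 6 fell, with a median of 0.06 beside -0.00082 over all genes, where 35.7% of all tested genes were called higher and 36.1% lower. Aurka, the mitotic kinase that stabilizes MYCN, fell with TG in activated T cells (14.97 and 15.5 CPM with TG, against 52.2 and 53.5 CPM with vehicle; -1.81 ± 0.082) and in resting T cells (-1.56 ± 0.074). In activated T cells 2 of 12 rose with TG and 8 fell, where 32.6% of all genes were called higher and 32.4% lower; in resting T cells 3 rose and 8 fell, where 34.1% were called higher and 35.2% lower. With activation Usp36 rose by 1.47 ± 0.049 and Usp28, another deubiquitinase, fell by 1.87 on the log2 scale. The other network genes and cofactors numbered 14, of which 13 were tested in T cells and 12 in melanoma. With activation 7 rose and 2 fell, where 35.3% of all genes were called higher and 39.1% lower, led by the helicase genes Ruvbl1 (64.5 and 63.7 CPM in activated cells, against 22.4 and 20.1 CPM in resting cells; 1.64 ± 0.072) and Ruvbl2 (1.28 ± 0.045). With TG Tfap4, a helix-loop-helix factor that is itself a MYC target, fell in control melanoma (-1.74 ± 0.13) and in activated T cells (-1.02 ± 0.115), and Mga, a MAX partner with a T-box domain, rose in control melanoma (0.82 ± 0.12) and in resting T cells (0.57 ± 0.083). Of this list 1 of 12 rose and 5 fell with TG in control melanoma, so Mga was the only called rise there. In activated T cells 1 of 13 rose with TG and 7 fell, and in resting T cells 2 of 13 rose and 3 fell. The shares of all genes are those given above for TG.

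Over the 20 libraries, and among 9282 genes with a mean of at least 10 CPM, the genes whose log2(CPM + 1) was most like that of Myc were Nop9, Zmiz2, Ddx54 and Stat5a (Pearson r between 0.978 and 0.980). Zfp518a (-0.984) and Klf3 (-0.983) were the most unlike. For Mxd4 the most alike were Crkl, Tbcel, Cdk2ap2 and Tcp11l2 (r between 0.946 and 0.958), and the most unlike Hyal2 (-0.973) and Pcgf3 (-0.957). These values are a description over libraries that share cell type and treatment.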

How the data were processed

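The deposited table holds gene counts of total RNA as the authors made them. The aligner was STAR 2.6.0c, the build GRCm38/mm10 and the counter HTSeq, per the submitters' processing notes. The version of HTSeq, the annotation, the strand setting and the filters are not given in the sources used here. 46005 of 46603 identifiers were named from GENCODE M21; the 598 unnamed ones held 0.0759% of counts. Promoter windows are from RefSeq.

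The tests used edgeR 4.0.16 under R 4.3.3, with TMM scaling, filterByExpr and robust quasi-likelihood fits. P-values were adjusted by Benjamini-Hochberg over every gene tested, and a call needed an adjusted p below 0.05. Melanoma was fitted on 8 libraries (12540 genes), T cells on 12 (13432 genes) and comparisons across cell types on 20 (14824 genes), with a common biological variation of 2.71% to 2.80%. An SE is the size of a log2 change over the root of its F value. Levels in CPM come from 1 scaling over all 20 libraries, so fold changes of printed levels can differ slightly from the fitted ones.

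There were 18 comparisons. Named are all members, up to 3 called genes of each list with the largest change and at least 10 CPM, Txnip and Arrdc4, the genes most and least like Myc and Mxd4, and the targeted genes. The members and lists were chosen with earlier results of these data known. Alternatives were DESeq2 1.42.0, another scaling, other filters, a replicate block, smaller fits holding just the groups compared, other gene lengths and each library left out; fits without the labelled resting KO libraries were added after seeing the data. The pipeline was tested on simulated data.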

Additional observations from a re-analysis of the deposited data

Results flagged for a closer look

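Each difference of TG responses that passed the test is given here as the difference of log2 changes; no sample was tested as an outlier, since groups held 2 libraries. Between Ccdc101 KO and control melanoma the TG change differed by 0.32 for Myc, -0.86 for Mxi1 and -0.46 for Mxd4. Between activated and resting control T cells it differed by -0.97 for Myc, -1.59 for Mycn, 2.18 for Mxd4, -0.45 for Max, -0.30 for Mlxip, 0.29 for Mlx and -0.17 for Mxi1.

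Between control melanoma and resting control T cells the TG change differed by 3.52 for Mxd1, 3.33 for Mxd4, 1.47 for Mxi1, 0.64 for Mlx, 0.42 for Mnt, -1.03 for Myc, -0.78 for Mxd3, -0.21 for Mlxip and -0.21 for Max; both last calls were lost with DESeq2 and with some single libraries left out. Between control melanoma and activated control T cells it differed by 3.53 for Mxd1, 1.64 for Mxi1, 1.15 for Mxd4, 0.42 for Mnt, 0.34 for Mlx, 0.23 for Max and -1.22 for Mxd3. The 2 last sets share the control melanoma libraries.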

How the results depend on the processing

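Over 1967 recomputed member changes 1844 kept their direction and side of the threshold, 55 lost their call and 22 gained one, and 0 called values changed sign. Another 46 changed sign without being called in either fit. The log2 changes of these 46 reached 1.08 in size as reported and 0.99 when recomputed. Apart from those of Mxd3, the changes that gained or lost a call were small as reported, up to the 0.29 of Mlx between activated and resting T cells. For Mxd3 the largest was -1.22, between control melanoma and activated T cells. Members called for Ccdc101 KO against control melanoma with TG numbered 5, but 3 with DESeq2 and 3 to 6 with a library left out. Between activated and labelled resting Atp2a2 KO cells 0 were called, but 1 (Mnt) with no filter. Without the TMM factor 6 of 10 members kept both their highest and their lowest group, and the Myc levels of control melanoma and resting T cells with vehicle overlapped. Myc had the largest mean share of the MAX partners in 10 of 10 groups under other lengths, but in control melanoma with TG and no length correction it was level with Mxi1 (means 24.4% and 24.2%), which was above it in 1 library (23.98% against 23.66%). DESeq2 called fewer genes: 561 up and 947 down, against 1550 and 1668 by edgeR, for the Ccdc101 KO with vehicle; 1046 and 1080, against 2078 and 1878, with TG; 447 and 224, against 898 and 746, for the difference of the TG change; and 1477 and 1679, against 2357 and 2629, for the Atp2a2 KO in activated cells.

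Replicate numbers did not pair the libraries: deviations of same-numbered libraries correlated between -0.155 and 0.136, with 1 of 21 pairs of groups over 0.1. With a replicate block 10 members were called for TG in resting T cells, as without it, and the block changed no member call. The cause of the lost calls was not tested. Libraries of 2 a group limit small changes, and Mxd3 in activated cells and Mycn in melanoma rest on few counts.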
